A study of Sus scrofa with 90 samples.

Results

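The 74 features described here are spots of a pig cDNA expression array that carry no gene symbol. After scaling between arrays, their mean signal was higher than in uninjected muscle 6 h, 7 d and 21 d after an intramuscular injection. The features were chosen by measured values. A feature entered when its scaled mean exceeded the control mean by at least 0.3 log units at each of these 3 ages. On the deposited values without this scaling, 31 of the 74 met the threshold at all 3 ages. The set is 74 of 1702 unnamed features with a value in every column (4.35%), within 1908 features in all. Each is called by its number on the array's feature list, which runs from 4609 to 9216. The files used here pair these numbers with no gene, no sequence and no genome position, so the features are described by level, time course and place on the list.

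The samples were Longissimus dorsi muscle, a long muscle of the back, from 10 piglets named C to L. Every piglet received 4 intramuscular injections of propylene glycol, a common drug solvent, at randomised sites and at different times, which gave lesions of 6 h, 2 d, 7 d and 21 d. The control was a site without injection in the same animal, so each control came from a piglet that carried lesions elsewhere. Radioactive cDNA made from total RNA was hybridised to 1 array per muscle sample. The values used came from 10 control sites. There were 9 lesions aged 6 h, 10 aged 2 d, 9 aged 7 d (none listed for pig J) and 9 aged 21 d (none listed for pig L). The 6 h array of pig F was left out because its values stood 384 places away from their features, and so was 1 of the 2 columns of the 6 h lesion of pig J, since it repeated the pig I control value for value.

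As background, a chemical injury to muscle passes through overlapping stages. Damaged fibres die and leak their contents, neutrophils and then macrophages enter and clear the debris, satellite cells divide and fuse into new fibres, and fibroblasts lay down matrix that is later remodelled or left as a scar. RNA from a lesion therefore comes from a changing mixture of surviving fibres, regenerating fibres and entering cells. In such bulk samples, more cells of a type and more RNA per cell cannot be told apart.

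Values are quantile-normalised and logarithmic, but neither the labels nor the table state the base, so differences are given in log units. Quantile normalisation gives every array the same set of values, and a feature's value then depends on its rank on the array. The spread of the deposited values differed between arrays, with overlapping ranges. The SD within an array ran from 0.528 to 1.26 in controls, from 0.501 to 0.903 at 6 h, from 0.686 to 0.961 at 2 d, from 0.384 to 0.839 at 7 d and from 0.424 to 1.10 at 21 d. Array medians lay between 0.012 and 0.12. Of the 10 muscle markers listed, 6 were measured: CKM, DES, MYH7, MYLPF, TNNT3 and TPM2. Their 40 features had control means from -0.40 to 2.56. No measured feature carried a symbol of the leukocyte, blood or satellite cell lists, FN1 was the one matrix gene measured and PECAM1 the one endothelial gene.

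Across the 74 features the lesions followed a course with an early rise, a return towards control and a later rise. The median difference from control reached 0.58 at 6 h, then only 0.073 at 2 d, 0.73 again at 7 d and finally 0.47 at 21 d. Over all 1702 unnamed features it lay between -0.021 and 0.0016. Normalisation gives every array the same set of values and so largely holds that median near 0. Without normalisation the median over all unnamed features lay between -0.038 and 0.014. The heights at 6 h, 7 d and 21 d follow from the way the features were chosen and are given as a description. At 6 h the differences ran from 0.31 to 1.63, at 7 d from 0.33 to 2.45 and at 21 d from 0.31 to 2.77. The largest of the 3 differences was at 7 d in 51 features, at 6 h in 12 and at 21 d in 11. On the deposited table values without normalisation the medians were 0.47 (6 h), -0.022 (2 d), 0.38 (7 d) and 0.26 (21 d), and the largest difference was at 6 h in 48 features and at 7 d and 21 d in 13 each. The age of the highest difference thus turned with the scaling, while 2 d had the lowest median on both. The 2 d mean was the lowest of the 4 lesion ages in 71 of 74 features, and the exceptions were 4617, 4858 and 5745. The choice asked for at least 0.3 at 6 h, 7 d and 21 d and for nothing at 2 d. The low place of 2 d is thus partly set by the choice. Over all 1908 features the difference was at least 0.3 in 59 at 2 d, against 151 at 6 h, 205 at 7 d and 137 at 21 d.

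**Figure D1:**
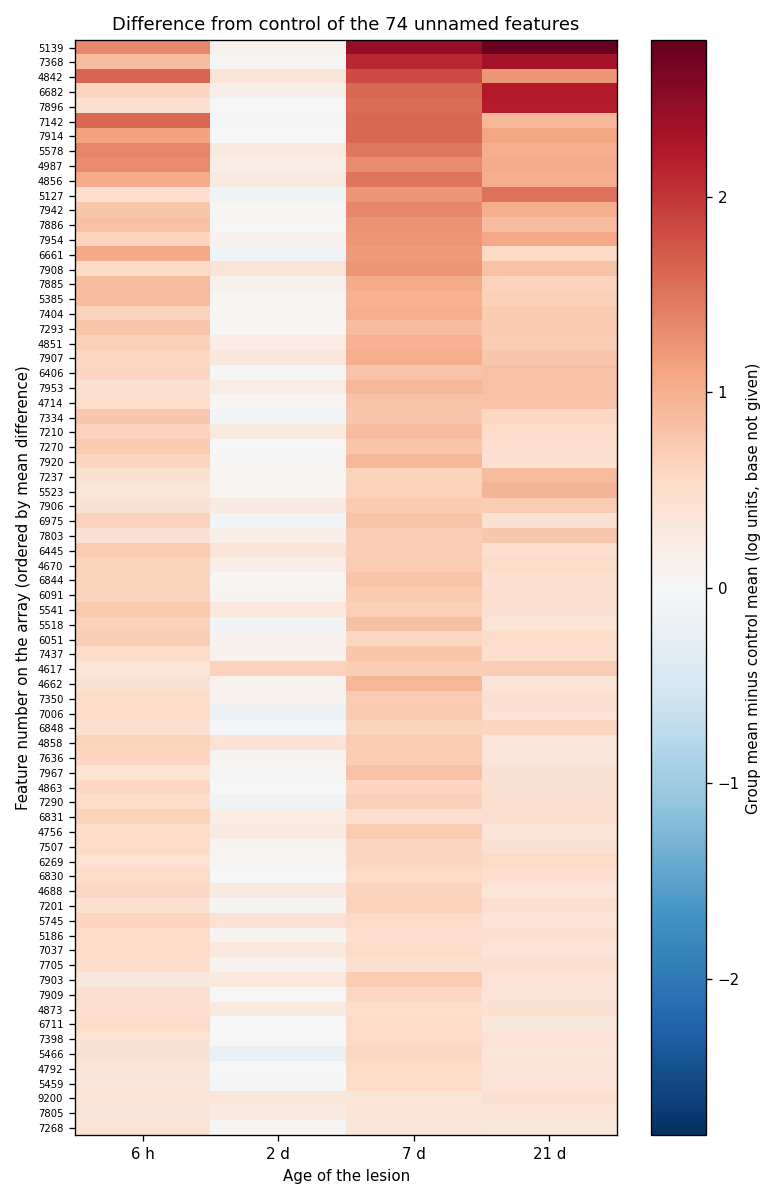
Each row is 1 of the 74 features, ordered by the mean of the 6 h, 7 d and 21 d differences, and each column an age of the lesion. Colour gives the group mean minus the control mean in log units. The 2 d column is pale in nearly every row (median 0.073), and the darkest cells are at 7 d and 21 d in the upper rows, up to 2.77 for feature 5139.

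By limma with the animal as a block, 66 of the 74 features were called higher at 6 h, against 6.92% of all 1908 features. At 7 d 72 were called higher (10.7% of all features) and at 21 d 62 (6.5% of all features). These counts restate the choice of the features. In 25 features every 6 h lesion lay above every control, against 1.89% of all features. The same held for 37 features at 7 d (2.99% of all) and 17 at 21 d (1.31% of all). In 44 features every animal was higher than its own control at 6 h (4.66% of all features), in 52 at 7 d (5.4%) and in 29 at 21 d (2.78%). Features 5466 and 9200 were called at none of the 3 ages.

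The 8 features with the largest mean difference fell into 2 kinds of time course, described after their values were seen. In 5139, 7368, 6682 and 7896 the 21 d mean was the highest. In 4842, 7142, 7914 and 5578 the 6 h and 7 d means stood above the 21 d mean. For 7914 the 6 h mean did so only narrowly. Within this second kind, limma called 21 d below 6 h in 7142 alone, and below 7 d in 7142 and 4842. All 8 met the 0.3 threshold on the deposited table values too, where 31 of the 74 did.

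Feature 5139 had the largest differences of the set. Its control values ran from 0.76 to 1.09 with a median of 0.999. The 6 h lesions ran from 1.73 to 2.70 (median 2.35), the 2 d lesions from 0.68 to 1.42 (median 1.10), the 7 d lesions from 2.67 to 3.93 (median 3.47) and the 21 d lesions from 3.52 to 3.93 (median 3.75). All lesions of 6 h, 7 d and 21 d were above all controls, whereas the 2 d lesions overlapped them. On 2 of the 7 d arrays and 3 of the 21 d arrays this feature ranked first of all features, which sets its highest value of 3.93. Its mean was 0.99 ± 0.096 (SD, n = 10) in controls and 3.75 ± 0.15 (n = 9) at 21 d.

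Feature 7368 had a course close to that of 5139 from a lower level. Controls ran from -0.28 to 0.28 (median 0.23), 6 h lesions from 0.47 to 1.29 (median 0.999), 2 d lesions from -0.27 to 0.51 (median 0.16), 7 d lesions from 1.59 to 3.17 (median 2.12) and 21 d lesions from 0.17 to 3.07 (median 2.79). The 6 h and 7 d lesions were all above the controls, and at 21 d 8 of 9 were. The exception was pig K at 0.17, while the next lowest 21 d lesion was at 1.97.

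Features 6682 and 7896 started near 0 and were higher at 6 h. They fell back towards control at 2 d, then climbed through 7 d to 21 d. In 6682 the controls ran from -0.071 to 0.33 (median 0.033), the 6 h lesions from 0.25 to 1.03 (median 0.68), the 2 d lesions from -0.14 to 1.08 (median 0.17), the 7 d lesions from 0.93 to 2.38 (median 1.62) and the 21 d lesions from 1.28 to 2.86 (median 2.40). In 7896 the controls ran from -0.41 to 0.30 (median 0.085), the 6 h lesions from 0.20 to 0.78 (median 0.44), the 2 d lesions from -0.23 to 0.57 (median 0.022), the 7 d lesions from 0.83 to 1.88 (median 1.69) and the 21 d lesions from 1.44 to 2.82 (median 2.32). In both features the 7 d and 21 d lesions were all above the controls, and at 6 h 8 of 9 lesions of 6682 and 7 of 9 of 7896 were. Pig C had the lowest value at 7 d and at 21 d in both.

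The other kind of course, high at 6 h already and lower at 21 d than at 7 d, was seen in 7142. Its controls ran from -0.22 to 0.38 (median 0.26), its 6 h lesions from 1.43 to 2.02 (median 1.74), its 2 d lesions from -0.27 to 0.58 (median 0.17), its 7 d lesions from 1.35 to 2.51 (median 1.59) and its 21 d lesions from -0.091 to 1.94 (median 1.09). All lesions of 6 h and 7 d stood above the controls, and at 21 d all but that of pig J did. The controls of feature 7914 averaged -0.066 ± 0.17 (SD, n = 10). Its lesions averaged 1.07 ± 0.14 (6 h, n = 9), -0.077 ± 0.12 (2 d, n = 10), 1.55 ± 0.22 (7 d, n = 9) and 1.05 ± 0.56 (21 d, n = 9). No 2 d lesion of 7914 exceeded its highest control. At 21 d its lowest lesion was that of pig J at 0.053, and the next was that of pig K at 0.56.

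Features 4842 and 5578 started from a higher control level. Feature 4842 averaged 0.70 ± 0.13 in the 10 controls and 2.33 ± 0.41 (6 h), 1.05 ± 0.26 (2 d), 2.53 ± 0.27 (7 d) and 1.94 ± 0.42 (21 d) in the lesions. Feature 5578 averaged 0.76 ± 0.12, 2.13 ± 0.26, 1.03 ± 0.11, 2.24 ± 0.32 and 1.77 ± 0.40 in the same order. At 2 d both were above the pig's own control in 10 of 10 animals, by 0.35 and 0.27, and neither was called (adjusted p = 0.306 and 0.394 by limma). On table values these differences were 0.16 and 0.056. All their lesions of 6 h, 7 d and 21 d lay above all controls.

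**Figure D2:**
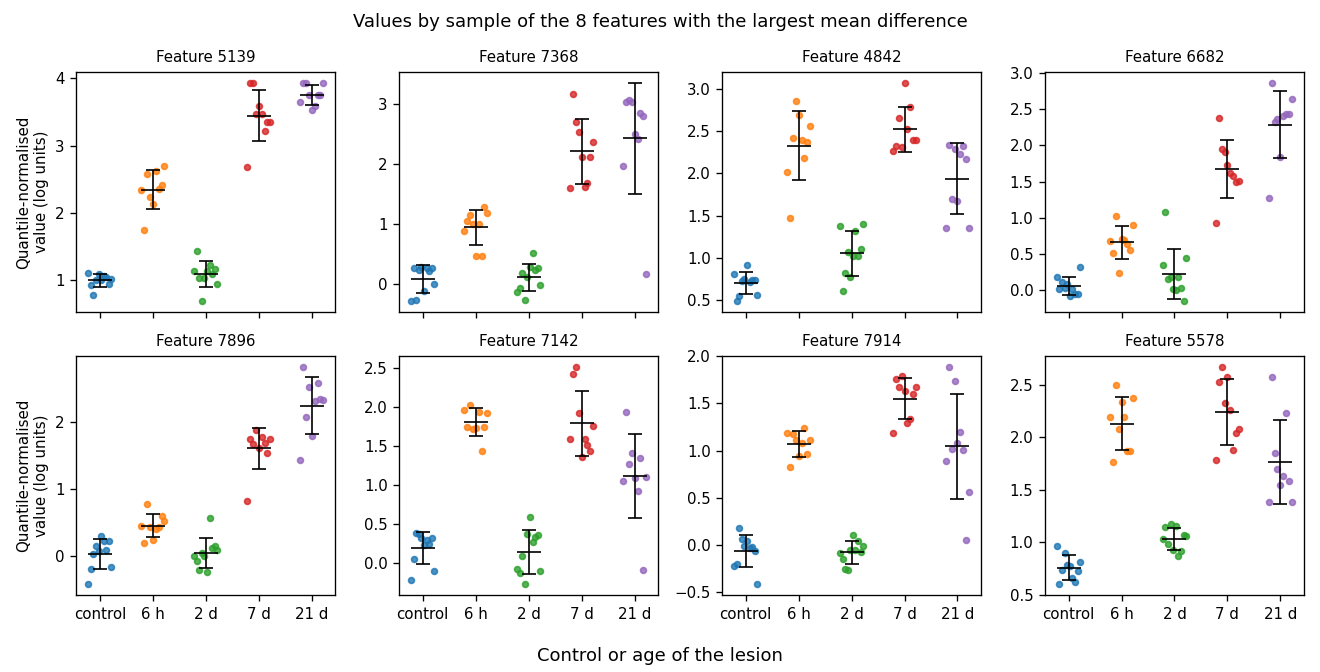
Points are single muscle samples of the 8 features with the largest mean difference, with the mean and SD of each group in black; the vertical axis is the quantile-normalised value in log units. Feature 5139 reaches 3.75 ± 0.15 at 21 d, and features 7142 and 7914 have their lowest 21 d lesion in pig J.

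The threshold cut through a continuous range. Just inside it, judged by the smallest of the 3 differences, lay 7903 (0.31, at 6 h), 6711 (0.31, at 21 d) and 7268 (0.31, at 21 d). Just outside lay 4620 at 0.295, 7208 at 0.292 and 5602 at 0.292. With a threshold of 0.2 the set would hold 146 features, and with 0.4 it would hold 53.

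The lesion of 2 d was the age that the choice of features did not use. It was set against the same controls, so a feature whose controls were low by chance was favoured both in the choice and in this comparison. At 2 d 4 of the 74 features were called higher, against 0.734% of all 1908 features, and none was called lower (by limma 0 of 74). An unadjusted p below 0.05 by limma, in either direction, was reached by 14 of the 74 and by 170 of all 1908 features. The 2 d difference was at least 0.3 in 9 of the 74 features and in 55 of all 1702 unnamed features. It was between 0 and 0.3 in 49 and below 0 in 16, the lowest being -0.21 in 5466 (adjusted p = 0.771 by limma). The direction of the majority turned with the scaling: 58 of the 74 were above 0 on normalised values and 31 on table values. Over all 1702 unnamed features, 752 were above 0 on normalised values and 720 on table values.

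Feature 4617 was the clearest of the 4. Controls ran from -0.31 to 0.13 (median -0.074) and 2 d lesions from 0.305 to 1.08 (median 0.56), with no overlap between the groups, which 0.262% of all features showed; 6 of the 74 were higher at 2 d in every animal (1.26% of all features). The difference was 0.65 (SE 0.117, adjusted p = 0.000582 by limma), in 10 of 10 animals. It was nearly the same at 7 d (0.70) and at 21 d (0.70) and smaller at 6 h (0.35). The dip at 2 d that marked most of the other features was thus not seen in 4617. On the deposited table values its 2 d difference was 0.75, and the call ended in 1 of 20 alternatives (adjusted p up to 0.063), when a running median of the places around each feature was subtracted.

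The other 3 features called at 2 d were among the brighter ones. Feature 5745 was at 1.52 ± 0.18 (n = 10) in controls and 1.92 ± 0.17 (n = 10) at 2 d, a difference of 0.40 (SE 0.091, adjusted p = 0.0146 by limma). Feature 6445 went from 1.60 ± 0.20 to 1.99 ± 0.24 (difference 0.39, SE 0.091, adjusted p = 0.0182). Feature 4858 went from 2.52 ± 0.30 to 2.93 ± 0.19 (difference 0.41, SE 0.0958, adjusted p = 0.0202). These 3 features were higher in 10 of 10 animals, and in each the 2 d lesions overlapped the controls. On table values without normalisation these differences were -0.019, 0.0072 and -0.022, with adjusted p from 0.964 to 0.989 by limma. Whether these 3 features were called thus depended on the scaling, and so did the direction in 5745 and 4858. Under the 20 alternatives 5745 was called in 12, 6445 in 10 and 4858 in 6. Over the 4 features the count was 1 without pig H, 1 without pig I and 2 without pig L.

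**Figure D3:**
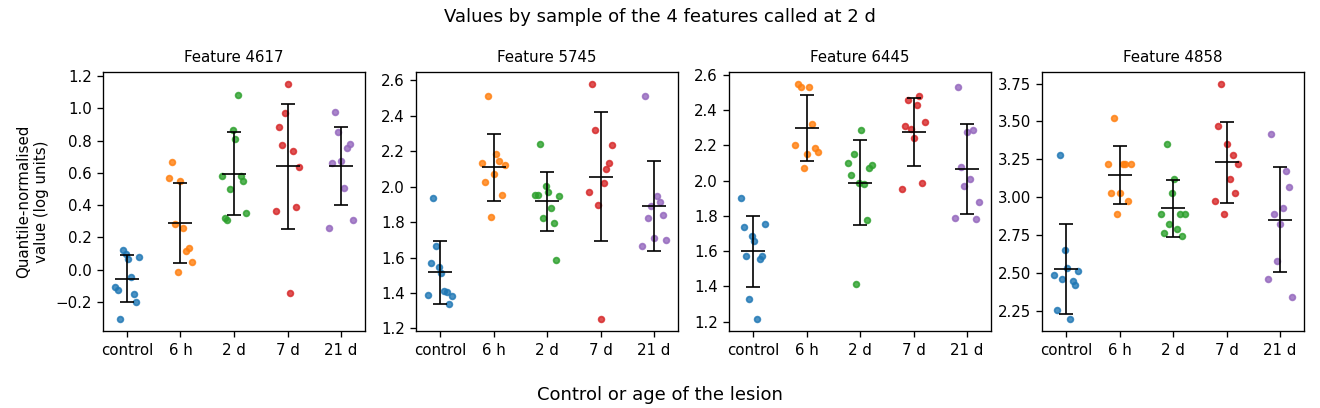
Points are single muscle samples of the 4 features called at 2 d, with group means and SDs in black, on the quantile-normalised log scale. The 2 d lesions of feature 4617 (0.305 to 1.08) lie above all its controls, and those of the other 3 features overlap theirs.

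Brighter and dimmer features among the 74 differed between the scalings. The control mean of the 74 features had a median of 0.30, from -0.41 to 2.52, against 0.041 over all unnamed features. It was at least 1 in 12 of the 74 (16.2%) and in 264 of all 1702 unnamed features (15.5%). On table values none of these 12 met the 0.3 threshold at all 3 ages, while 31 of the other 62 did. Feature 4858, for example, had table differences of 0.0065 at 6 h, -0.35 at 7 d and -0.65 at 21 d. Of the 12, 8 were above control at 6 h on table values, 3 at 7 d, 3 at 21 d and 1 at all 3 ages. Across the 74 features the table difference was above 0 in 70 (6 h), 31 (2 d), 62 (7 d) and 59 (21 d). Over all 1702 unnamed features it was above 0 in 880, 720, 870 and 832 in the same order. For 11 of the 12 brighter features the direction at 1 or more ages thus depended on the scaling, and the part of the array SD in the differences at these 3 ages was not tested.

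The lesions of 6 h, 7 d and 21 d were also compared with each other. The same lesion samples chose the features, so the calls describe differences within the set and are not independent of that choice. From 6 h to 7 d 11 of the 74 features were called higher, against 1.15% of all features, and none lower (0.472% of all features). The 7 d value of 7896 exceeded its 6 h value by 1.14 (SE 0.116, adjusted p = 9.56e-09 by limma), 5139 by 1.11 (SE 0.119, adjusted p = 1.92e-08) and 6682 by 1.001 (SE 0.138, adjusted p = 4.09e-06), and all 8 animals with both lesions had these directions. The remaining 8, named after their values were seen, were 5127, 7368, 7942, 7908, 7404, 7967, 4856 and 7954, with differences from 0.39 to 1.25. On table values limma called 0 of the 74, and 7 had an unadjusted p below 0.05. Feature 5139 then differed by 0.76 (adjusted p = 0.484; the other alternatives gave values down to 8.88e-10). The count was 7 without pig D, 6 without E or I, and 5 without G, K or L.

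From 6 h to 21 d 6 features were called higher (1.05% of all features) and 1 lower (0.577% of all features). Feature 7896 rose by 1.77 (SE 0.116, adjusted p = 1.33e-14 by limma), 6682 by 1.63 (SE 0.138, adjusted p = 1.57e-11) and 5139 by 1.43 (SE 0.119, adjusted p = 1.5e-11), with all 8 animals higher. These 3 calls held in all 20 alternatives tried, table values included, with adjusted p-values up to 0.000347. The size for 5139 was 0.66 with layout neighbours subtracted, and its 7 d against 6 h difference was then 0.70. The others were 7368, 5127 and 5523, higher by 1.47, 1.04 and 0.63, and 7142, lower by 0.70 (fitted difference -0.70, SE 0.158, adjusted p = 0.007) with 1 of 8 animals higher. Without pig D 14 features were called, 8 of them lower.

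From 7 d to 21 d 2 features were called higher (0.157% of all features) and 4 lower (0.524% of all features). Feature 7896 rose further by 0.63 (SE 0.116, adjusted p = 0.00215 by limma) and 6682 by 0.63 (SE 0.138, adjusted p = 0.0147), in 8 of 8 animals each. Feature 6661 was lower at 21 d by 0.59 (fitted difference -0.59, SE 0.14, adjusted p = 0.0327), with no animal higher. Its group means were 0.36 ± 0.17 (control), 1.42 ± 0.25 (6 h), 0.27 ± 0.23 (2 d), 1.55 ± 0.34 (7 d) and 0.93 ± 0.47 (21 d). The other falls were in 7142, 4856 and 4842 (-0.65, -0.50 and -0.58). The count was 12 without pig D, 3 without C, G or I, 2 without E and 1 without H or K, and on table values limma called 0, while 9 of the 74 had an unadjusted p below 0.05. Feature 6661 was called in 10 of 20 alternatives, 6682 in 16 and 7896 in 18.

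The changes into and out of 2 d are a description with no test, since the features were chosen high on both sides. From 6 h to 2 d the median change was -0.45, against 0.019 over all unnamed features, and 4617 was the one feature that was higher at 2 d. From 2 d to 7 d it was 0.66, against -0.021.

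The size of the differences varied between animals. Their direction at 6 h, 7 d and 21 d comes from values that chose the features and is a description. The median over the 74 features of lesion minus the same pig's control ran from 0.27 (pig G) to 0.75 (pig C) at 6 h, from 0.55 (pig H) to 1.12 (pig D) at 7 d and from 0.24 (pig J) to 1.18 (pig D) at 21 d. At 2 d it ran from -0.17 (pig F) to 0.21 (pig L), and pig F was the only animal below 0. The same median over all unnamed features stayed between -0.064 and 0.0083 in all animals and ages, and the normalisation largely holds it near 0. Of the 74 features, between 59 and 74 were above the pig's own control at 6 h, between 27 and 58 at 2 d, between 65 and 74 at 7 d and between 47 and 73 at 21 d. The spread between animals was widest at 21 d, where the median SD of the 74 features was 0.40, against 0.19 in controls (0.25 and 0.18 over all unnamed features).

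**Figure D4:**
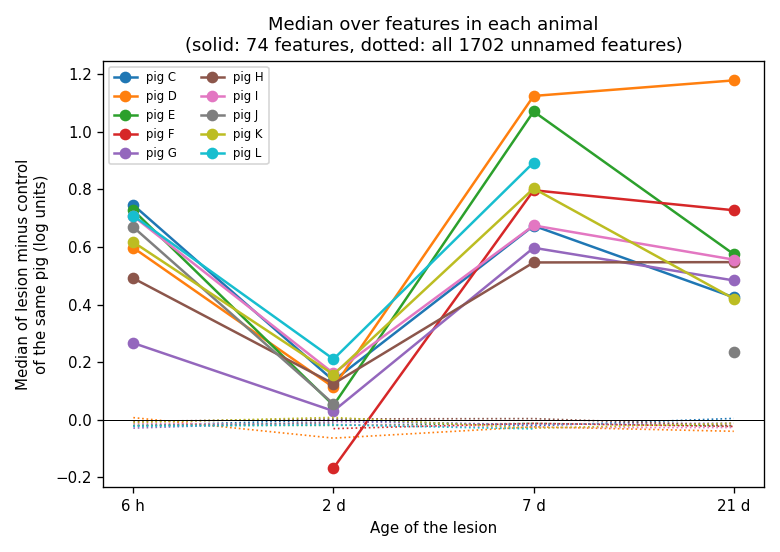
Each solid line is 1 pig and gives the median over the 74 features of lesion minus that pig's control in log units; dotted lines give the same over all 1702 unnamed features. The solid lines lie between -0.17 and 0.21 at 2 d and above 0.2 at the other ages. The dotted lines stay between -0.064 and 0.0083, held near 0 largely by the normalisation.

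The 74 features were not spread evenly along the feature list. Of each run of 384 places, the ninth (7681 to 8064) held 17 of the 74 among its 168 unnamed features (10.1%), and the fourth (5761 to 6144) held 2 of 229 (0.873%). The densest stretch by a window of 100 places, from 7885 to 7967, held 14 of the 74 among 75 unnamed features (18.7%). They were 7885, 7886, 7896, 7903, 7906, 7907, 7908, 7909, 7914, 7920, 7942, 7953, 7954 and 7967. The other unnamed features of this stretch had median differences of 0.087 (6 h), 0.065 (2 d), 0.16 (7 d) and 0.13 (21 d). Those at 7 d and 21 d were above the upper quartiles of all unnamed features, 0.13 and 0.11.

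Neighbours on the list resembled each other over all features, and among the 74 as well. After subtracting group means, the median correlation over 47 samples between features 1 place apart was 0.295 (1175 pairs), 24 places apart 0.463 (1085 pairs) and 384 places apart 0.434 (910 pairs). It was -0.11 at 12 places. These features share each array, so the correlations are a description of the arrays. Of the 82 places next to one of the 74 that held an unnamed feature, counted once from each side, 12 held one of the 74 (14.6%, against 4.35% of all unnamed features). They came from 10 features in 6 adjacent pairs, which were 6830 with 6831, 7885 with 7886, 7906 with 7907, 7907 with 7908, 7908 with 7909, and 7953 with 7954. Their correlations ran from -0.18 to 0.89. Features 5139 and 5523 lie 384 places apart, and 5523 had the shape of 5139 at a smaller size, with differences of 0.33 (6 h), 0.048 (2 d), 0.64 (7 d) and 0.95 (21 d). The part that neighbouring places have in these features was not tested beyond the subtraction of local medians. With a running median over 12 places on either side subtracted, 94 features met the rule, 59 of them among the 74. With layout neighbours subtracted 104 met it, 62 of them among the 74.

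**Figure D5:**
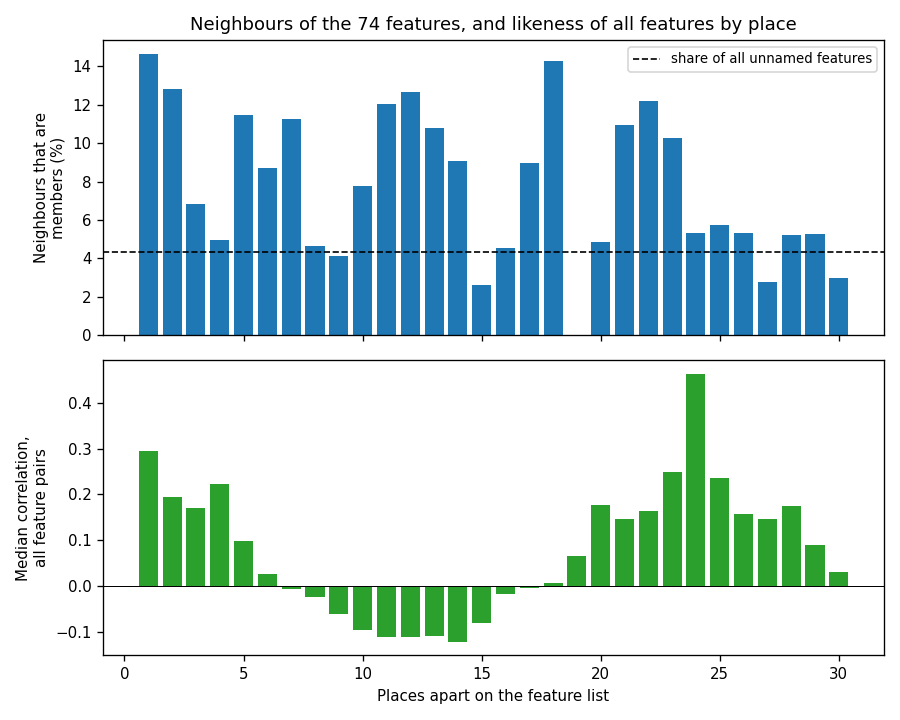
Upper bars give, for each distance on the feature list, the share of unnamed neighbours of the 74 features that belong to the 74, with the share among all unnamed features (4.35%) as a dashed line. Lower bars give the median correlation of all measured feature pairs at that distance within groups over 47 samples, with peaks at 1 place (0.295) and 24 places (0.463).

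Of the 206 features that carry 1 gene symbol, 8 met the same thresholds (3.88%). They stood for 7 genes: XIRP2, an actin-binding muscle protein; JAK1, a tyrosine kinase of cytokine receptors; UGP2, which makes UDP-glucose; HSPE1, a mitochondrial chaperonin; NPPA, the precursor of a natriuretic peptide; MYH7, the slow myosin heavy chain; and MYLPF, a light chain of fast fibre myosin. Nearest to the medians of the 74 features, by the root mean square distance over the 4 differences from control, were a MYLPF feature (6082, distance 0.037), JAK1 (0.082), UGP2 (0.14) and HSPE1 (0.155). The MYLPF feature 6082 differed from control by 0.63 (6 h), 0.022 (2 d), 0.74 (7 d) and 0.49 (21 d). JAK1 differed by 0.68, 0.18, 0.74 and 0.54. A likeness of course says nothing of what the unnamed features are.

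Features with the same symbol differed from each other. MYLPF has 18 measured features, and 2 of them met the thresholds, 6082 and 7944, the latter with 0.80 at 6 h, 1.18 at 7 d and 0.64 at 21 d. Of the other 16, feature 5772 was the lowest at 7 d, with -0.31 at 6 h, -0.60 at 7 d and -0.31 at 21 d. Others lay near 0, such as 6076 with 0.045, -0.032 and 0.015 at these ages. MYH7 has 4 measured features, of which 1 met the thresholds. The lowest, 4799, stood at -0.42, -0.57 and -0.38 at these ages, while 4610 and 6486 lay between -0.15 and 0.044. Feature 7944 lies inside the dense stretch from 7885 to 7967, as do the MYLPF features 7935 and 7952, which did not meet the thresholds. On table values feature 6082 was at 0.30 at 6 h, 0.069 at 7 d and -0.086 at 21 d, and HSPE1, whose control mean was 2.11, at 0.0016, -0.45 and -0.63.

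Among the 74 features, 7368 had the course nearest to that of XIRP2. XIRP2 differed from control by 1.19 (6 h), 0.079 (2 d), 2.10 (7 d) and 2.22 (21 d), and 7368 by 0.86, 0.022, 2.12 and 2.33 (distance 0.178). Features 5139 and 6682 followed at 0.336 and 0.383. The 4 comparisons with control behind these distances share their control samples, and 3 of the 4 differences were used to choose the features.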

How the data were processed

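RNA of 48 muscle samples was measured on 1 array each. Per the labels, spots were quantified from imaging plates. The deposited values are log-scale values of another unit than counts or intensities, from -1.33 to 5.00; the labels do not state how the authors scaled or filtered them. The table has 4608 features; 2695 have no value, 5 have values in some columns and 1908 in all 90 columns. Both columns of a sample, identical in 41 of 42 samples, were averaged. The samples used (47) were quantile-normalised and fitted by limma 3.58.1 (lmFit, eBayes) in R 4.3.3 over all 5 groups, with the animal as a fixed block. Two-sided p-values were adjusted by Benjamini-Hochberg over the 1908 features within a comparison, with calls at an adjusted p below 0.05. The fit was tested on simulated data. Figures used matplotlib 3.10.9.

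The block comes from the design, which placed control and lesions in the same piglets. Deviations from the group means had a median correlation of -0.0236 within and -0.00355 between animals. The arrays' number limits the precision.

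The 74 features, the lists and the tests were chosen with earlier results of these data known. Named were the 8 with the largest mean of the 3 differences, those called at 2 d, up to 3 called by adjusted p in each comparison between lesion ages, 3 on either side of the threshold, and features with a symbol that met the thresholds or lay nearest; others were named after their values were seen. Alternatives concerned scaling, the block, weights, doubtful arrays, array SD, single animals, the threshold and, chosen after seeing the data, the place on the list.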

Additional observations from a re-analysis of the deposited data

Results flagged for a closer look

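Some lesions or controls stood apart from the rest of their group, by a gap above the 95% critical value for a single distant sample, which about 1 group in 20 passes by chance. Of 80 groups of values of the named features, 9 had such a sample. In controls these were pig E at 0.765 in feature 5139 and pig E at 3.28 in feature 4858. At 2 d they were pig D at 1.08 in feature 6682 and pig I at 0.573 in feature 7896. At 7 d they were pig C at 0.828 in feature 7896, where the next lesion was at 1.53, and pig G at 1.62 in feature 7903. At 21 d they were pig K at 0.17 in feature 7368, pig J at -0.0915 in feature 7142 and pig D at 2.51 in feature 5745.

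Lesion ages differed by limma in several features. They were named for their small adjusted p in these comparisons, within a set chosen on the same lesions, so the values describe them and are no independent evidence. Between 6 h and 7 d the difference was 1.14 for feature 7896, 1.11 for feature 5139 and 1.0 for feature 6682. Between 6 h and 21 d it was 1.77, 1.43 and 1.63 for the same features in the same order. Between 7 d and 21 d it was 0.63 for feature 7896, 0.63 for feature 6682 and -0.59 for feature 6661. The adjusted p-values by limma ran from 1.33e-14 to 0.0327.

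The 6 h array of pig F was used in no comparison of the report, and only as an alternative with its values in place. After its values were moved back by 384 places, 36 of the 74 features had a value, and their median difference from the control mean was 0.468, against 0.00904 over 801 unnamed features.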

How the results depend on the processing

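Counts of the 74 features called under other processing, where they moved by more than 1.5 times, were as follows; the cause was not tested. At 2 d against control (4 as reported) the count was 2 with no replicate block, 2 if the animal was a random replicate block, 2 with the 6 h array of pig F kept, 2 without the control of pig I and the 6 h lesion of pig J, 2 with array SD in the model, 1 on table values and 1 with the running median subtracted. At 7 d against 6 h (11) it was 7 with array SD, 7 with the running median subtracted, 1 on median-centred values and 0 on table values. At 21 d against 6 h (7) it was 16 with array weights. At 21 d against 7 d (6) it was 0 on table values, 1 on median-centred values, 2 with the array of pig F kept, 2 with the running median and 3 with layout neighbours subtracted. The block moved no other of these 4 counts by over 1.5 times. Leaving out 1 pig, which leaves fewer samples, gave 1 to 4, 5 to 15, 7 to 14 and 1 to 12 calls in the same order, and 65 to 86 features that met the rule. Calls over all features at 2 d against control were 14 as reported, 28 on table values and 10 to 12 with the other settings listed. At 7 d against 6 h (31) they were 0 on table values and 1 to 19 with the others. At 21 d against 6 h (31) they were 81 with array weights. At 21 d against 7 d (13) they were 0 on table values and 1 to 10 with the others. Among these settings, only table values at 2 d had fewer calls of the 74 but more over all features. At 2 d the count moved less on median-centred values, where it was 5. Only 1 of these 5 was among the 4 reported, and 57 were called over all features. With array weights the 2 d count was 6, the 4 reported among them, and 53 were called over all features. On table values 43 features met the rule, 31 of them among the 74. On median-centred values 53 met it, 33 of them among the 74. With a threshold of 0.2 146 did. At 2 d against control, feature 5745 turned to -0.0189 on table values and -0.00340 on median-centred values, and feature 4858 to -0.0224 and -0.00690.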

Other observations

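The array of pig F gives values of the 74 features that had no part in choosing them, though the control means did. In place, its values and the average of all other arrays had a correlation of 0.24 over 1908 features, and moved by 384 places at 0.739 over 910 features. After the move, 27 of the 36 features were above the control mean and 22 by at least 0.3, against 412 and 206 of 801 unnamed features. Feature 5578 was then 1.23 above the control mean, 7368 0.79, 6682 0.65 and 5139 0.21, and XIRP2 was 1.36 above it. The value of 5139 was 1.20, below all its other 6 h lesions (1.73 to 2.70), with its highest control at 1.09. Features 5578, 7368 and 6682 lay within the range of their other 6 h lesions. On the other 6 h arrays the median over the same 36 features ran from 0.323 (pig G) to 0.88 (pig E). These are values of 1 array, with no replicate.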
